A study of Rattus norvegicus with 23 samples.

Results

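Complement is a set of plasma and membrane proteins that marks microbes and damaged cells and can assemble a pore in their membranes. The 37 complement genes described here were taken by symbol from a list of components, regulators and receptors, and all that had a row in the count table and enough reads were tested in the 3 groups of rat livers. Of the 37, 36 had a row and 35 passed the filter on low counts, among 15079 genes tested of 28913 rows. C4a had 0 to 7 reads in every library and was not tested, and Mbl2 was not analysed here because no row carried that symbol.

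Several routes start the cascade. In the classical route C1q, built from the chains C1qa, C1qb and C1qc, binds antibody or surfaces and turns on the proteases C1r and C1s. In the lectin route mannose-binding lectins, ficolins and collectins bind sugars and act through Masp1 and Masp2. The alternative route runs through factor B, factor D and properdin and amplifies the others. All of them cleave C3 and then C5, after which C6, C7, C8 and C9 form the membrane attack complex. Hepatocytes make most complement proteins of plasma, whereas C1q and properdin come mainly from macrophages and other myeloid cells. Kupffer cells are the resident macrophages of the liver sinusoids.

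The series concerns rat models of a disease of the small portal and sinusoidal vessels, and RNA was sequenced from livers of Sprague Dawley rats. The 6 Control libraries came from rats labelled untreated. The 7 LPS libraries came from rats that received lipopolysaccharide, a bacterial wall component, at 1 mg/kg, 2 times a week during 8 weeks by way of an operated catheter in the portal system. The 10 Selfox libraries came from rats fed a diet rich in selenium over 8 weeks, together with 8 weekly intravenous doses of oxaliplatin (3 mg/kg), 5-fluorouracil (25 mg/kg) and folinic acid (45 mg/kg). No surgery or catheter is named for Control, so lipopolysaccharide and the operation cannot be told apart. Diet and drugs cannot be told apart in Selfox either. The labels give no sex, age, batch or hour of collection. They do not say that each library is a separate rat, so p-values measure the spread between these libraries.

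Depth ran from 31.9 to 53.8 M (mega) counts in Control, 70.4 to 79.2 M in LPS and 65.1 to 74.8 M in Selfox. The hepatocyte marker Alb lay at 107278 to 178440 CPM (a gene's count per mega of counts in its library, on scaled library sizes) in Control, 65030 to 133709 in LPS and 78702 to 109912 in Selfox. Of 11 hepatocyte markers, 2 rose in LPS, beside 7.71% of all genes. In Selfox with Control 3 rose and 3 fell, beside 14.2% and 14.9% of all genes. Alb was among those that fell (-0.50 ± 0.12, adjusted p = 0.00394). The part of these markers in the changes of hepatocyte complement genes was not tested. In 5 libraries (Control 55, LPS 5, 6 and 7, Selfox 8) the clock gene Dbp exceeded Arntl, the reverse of the other 18. In Selfox 8 the margin was very small, at 3.352 against 3.348 on the log2 CPM scale. The rule only sorts libraries, because levels of the 2 genes are not on a common scale. These 5 are called the late-clock libraries, and counts that move without them are given beside the result. Complement genes held 2.91 ± 0.20% of all counts in Control (SD, n = 6), 3.32 ± 0.38% in LPS (n = 7) and 2.99 ± 0.32% in Selfox (n = 10). C3 alone took 1.01% to 1.70% of the counts of a library. Levels are compared between groups for 1 gene at a time, because transcript lengths were not used and levels of different genes are not on a common scale.

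In LPS livers C4bpa, Cfi, C3 and C9 rose, and Fcna and Cd46 fell. That is 4 higher and 2 lower of 35 genes, against 7.71% higher and 6.99% lower among all genes tested (edgeR quasi-likelihood test, adjusted p below 0.05). The other 29 genes did not pass, and their fold changes ran from -0.25 (C3ar1) to 0.60 (C4b) on the log2 scale. The median of the 35 was 0.07, beside 0.01 over all genes tested. Without the 5 late-clock libraries 1 gene rose (C4bpa) and 1 fell (Cd46).

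In Selfox livers C1qa, C1qb, C1qc, Fcna, Cfd, Cfp and C7 fell, and C8a, C9, C4bpa, Cd59 and Cd46 rose. That is 7 lower and 5 higher of 35, against 14.9% lower and 14.2% higher among all genes. The other 23 lay between -0.26 (C5ar1) and 0.47 (C3ar1). The median of the 35 was -0.06, beside 0.01 over all genes. The first 6 genes that fell were below every control in 10 of 10 libraries. Without the late-clock libraries Masp1 and Clu also passed, both lower. LPS and Selfox were set against the same 6 control libraries, so their values are given side by side and no overlap is drawn from them.

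Set directly against LPS, Selfox livers had less C1qa, C1qb, C1qc, Cfd, Cfp, C7, Cfi and Serping1 and more Cd46 and C3ar1. That is 8 lower and 2 higher of 35, against 7.64% lower and 6.86% higher among all genes. The median of the 35 was -0.17, beside 0.00 over all genes. The other 25 lay between -0.56 (Fcna) and 0.18 (Cd55). Without the late-clock libraries 1 gene was higher, Cd46, and 7 were lower.

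**Figure D1:**
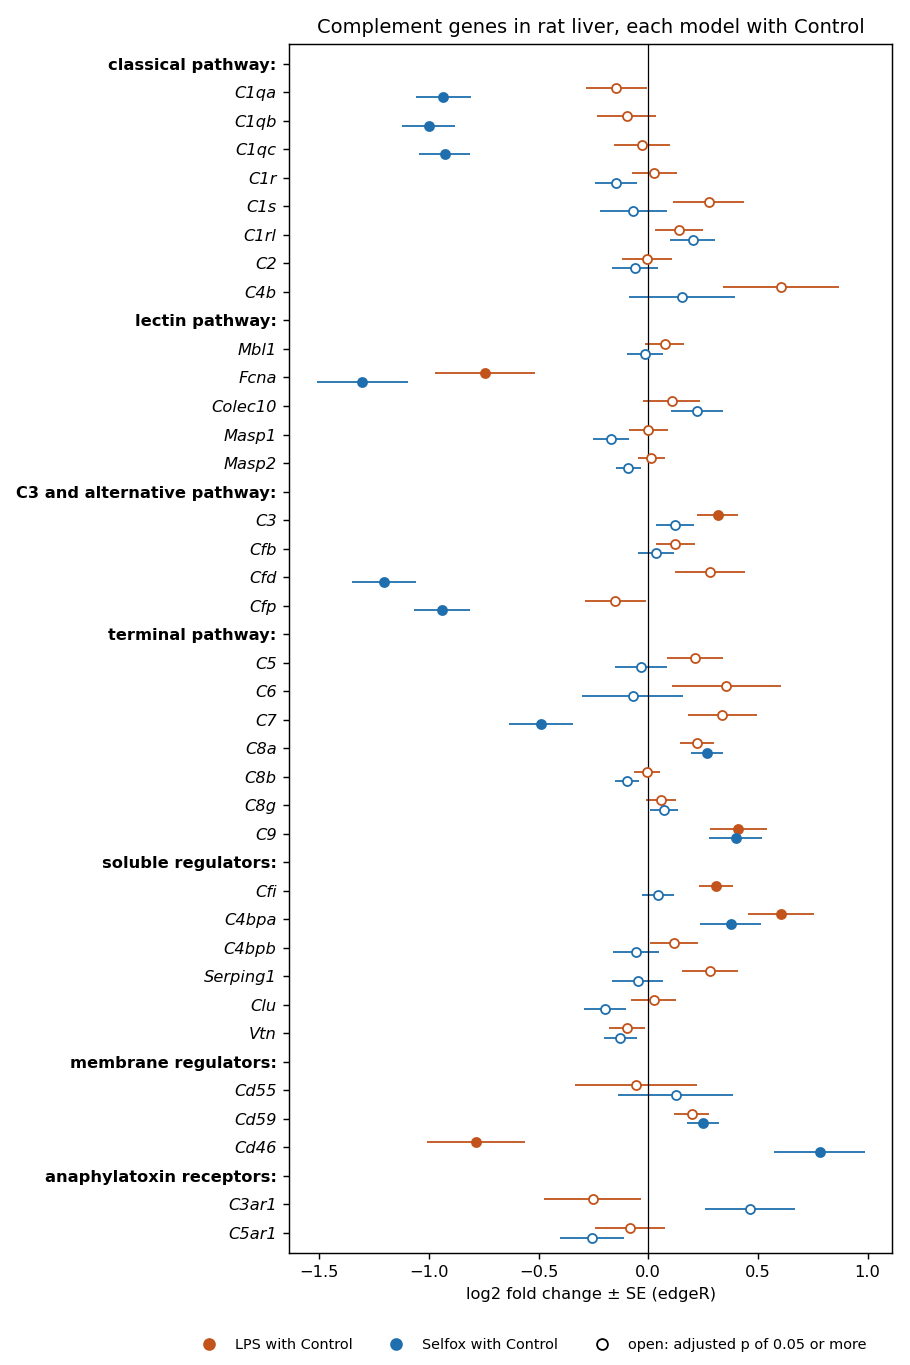
Log2 fold change with its standard error (x axis) of the 35 tested complement genes, by role, for LPS with Control (orange) and Selfox with Control (blue), which share the same controls. Filled points passed an adjusted p of 0.05. The C1q genes, Fcna, Cfd and Cfp lie furthest left in Selfox, and Cd46 lies left of 0 in LPS and right of 0 in Selfox.

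The 3 C1q genes fell together in Selfox. C1qa lay at 65.8 to 89.1 CPM in Control (median 79.0), 53.6 to 89.4 in LPS (median 71.1) and 27.9 to 48.4 in Selfox (median 43.6). C1qb lay at 48.8 to 72.4 CPM in Control (median 62.0), 43.0 to 69.8 in LPS (median 57.1) and 22.3 to 36.2 in Selfox (median 33.5). C1qc lay at 56.9 to 72.4 CPM in Control (median 65.4), 47.5 to 76.5 in LPS (median 67.6) and 25.0 to 39.9 in Selfox (median 35.4). For all 3 chains the highest Selfox library was below the lowest library of Control and of LPS, while Control and LPS overlapped. In Selfox C1qa fell 1.91-fold (log2 -0.94 ± 0.13 SE, adjusted p = 1.53e-05), C1qb 2.002-fold (-1.002 ± 0.123, adjusted p = 5.91e-06) and C1qc 1.90-fold (-0.93 ± 0.12, adjusted p = 7.19e-06). In LPS the values were -0.14 ± 0.14 for C1qa, -0.10 ± 0.14 for C1qb and -0.03 ± 0.13 for C1qc, none past the threshold. The 95% intervals in LPS reached no lower than -0.41, so a fall as large as that of Selfox lies outside them. Selfox was lower than LPS by 0.79 ± 0.12, 0.90 ± 0.12 and 0.90 ± 0.11 on the log2 scale for C1qa, C1qb and C1qc (adjusted p = 0.000124, 2.21e-05 and 1.15e-05). The genes are direct neighbours in the RefSeq annotation of GRCr8, in the order C1qb, C1qc, C1qa.

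The other classical components, largely hepatocyte products, passed in no comparison. They are the proteases C1r and C1s, the C1r-like protease C1rl, and C2 and C4b, whose cleaved forms make the classical C3 convertase. C4b had the widest spread, from 52.1 to 87.3 CPM in Control (median 63.0), 61.2 to 211.7 in LPS (median 82.5) and 50.6 to 102.8 in Selfox (median 70.5). A single library, LPS 7, held the 211.7, and the groups overlapped. Its log2 fold change was 0.60 ± 0.26 in LPS (adjusted p = 0.126) and 0.15 ± 0.24 in Selfox. C4a and C4b are near-identical copies, so how reads were shared between them is uncertain. C1r spanned 519.7 to 918.8 CPM, C1s 527.8 to 1337 and C2 132.7 to 232.7 over all libraries, with overlapping groups, and C1rl was above every control in 5 of 10 Selfox libraries (0.20 ± 0.10, adjusted p = 0.146). The 95% interval for C2 was -0.22 to 0.21 in LPS and -0.27 to 0.14 in Selfox.

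Of the 5 lectin-route genes tested, only Fcna moved past the threshold with all libraries by edgeR. Fcna encodes ficolin-A, a sugar-binding recognition protein made by macrophages of liver and spleen. It lay at 24.9 to 38.9 CPM in Control (median 28.6), 9.27 to 25.8 in LPS (median 20.6) and 8.02 to 21.5 in Selfox (median 10.95). In Selfox all 10 libraries lay below every control; in LPS 6 of 7 did, and LPS 4, 5 and 6 were the lowest 3 of that group. It fell by 1.30 ± 0.21 on the log2 scale in Selfox (2.47-fold, adjusted p = 0.000111) and by 0.75 ± 0.23 in LPS (1.68-fold, adjusted p = 0.0308). The difference of Selfox from LPS was -0.56 ± 0.20 and did not pass (adjusted p = 0.0646). It passed in 8 other settings, among them DESeq2, limma voom, without the late-clock libraries, and without LPS 4, LPS 5 or LPS 6. The fall in LPS no longer passed when Control 40, Control 52, LPS 4, LPS 5 or LPS 6 was left out (adjusted p up to 0.0684), nor with no filter on low counts, nor without the late-clock libraries (-0.60, adjusted p = 0.108).

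Mbl1 (a mannose-binding lectin), Colec10 (the collectin CL-L1) and the proteases Masp1 and Masp2 did not pass in any comparison with all libraries by edgeR. Masp1 passed as lower in Selfox with Control by limma voom and without the late-clock libraries. It also passed as lower in Selfox with LPS without LPS 6. Mbl1 stood at a median of 178.3 CPM in Control, 194.4 in LPS and 177.4 in Selfox. Masp2 had a narrow interval, from -0.11 to 0.14 in LPS and from -0.20 to 0.02 in Selfox. For Masp1 6 of 10 Selfox libraries were below every control (-0.17 ± 0.08, adjusted p = 0.124), and for Colec10 7 of 10 were above (0.22 ± 0.12, adjusted p = 0.171).

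In the alternative route, properdin (Cfp), which stabilises the C3 convertase, and factor D (Cfd, also called adipsin), the protease that cleaves factor B, fell in Selfox. Cfp lay at 37.7 to 54.2 CPM in Control (median 48.0), 32.0 to 50.2 in LPS (median 46.2) and 16.8 to 29.0 in Selfox (median 26.0). Cfd lay at 7.27 to 13.3 CPM in Control (median 9.68), 8.80 to 15.3 in LPS (median 11.5) and 3.35 to 6.13 in Selfox (median 4.08). Every Selfox library was below every Control and every LPS library for both genes, and Control and LPS overlapped. Cfp fell 1.92-fold in Selfox (-0.94 ± 0.13, adjusted p = 1.65e-05), and Cfd 2.31-fold (-1.21 ± 0.15, adjusted p = 4.89e-06). Set against LPS, Cfd was 2.80-fold lower (-1.49 ± 0.14, adjusted p = 2.36e-07) and Cfp 1.73-fold lower (-0.79 ± 0.12, adjusted p = 0.000146). In LPS with Control neither passed, at 0.28 ± 0.16 for Cfd and -0.15 ± 0.14 for Cfp. Cfd is known as a fat cell product. The 6 adipocyte markers summed to 52.5 to 70.1 CPM in Control, 58.5 to 77.3 in LPS and 63.9 to 105.1 in Selfox. Of the 2 that could be tested, Cidec rose in Selfox with Control (0.34 ± 0.11, adjusted p = 0.0226) and Fabp4 in Selfox with LPS (1.12 ± 0.30, adjusted p = 0.0143). Without the late-clock libraries 0 of the 2 passed in either comparison. Among the untested markers the defining marker Adipoq reached at most 0.109 CPM, Lep was at 0 in every library, and Plin1 was at 0 throughout LPS and Selfox. The summed level alone therefore does not show that fat cells were present. The part of fat cells in the Cfd level was not tested.

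**Figure D2:**
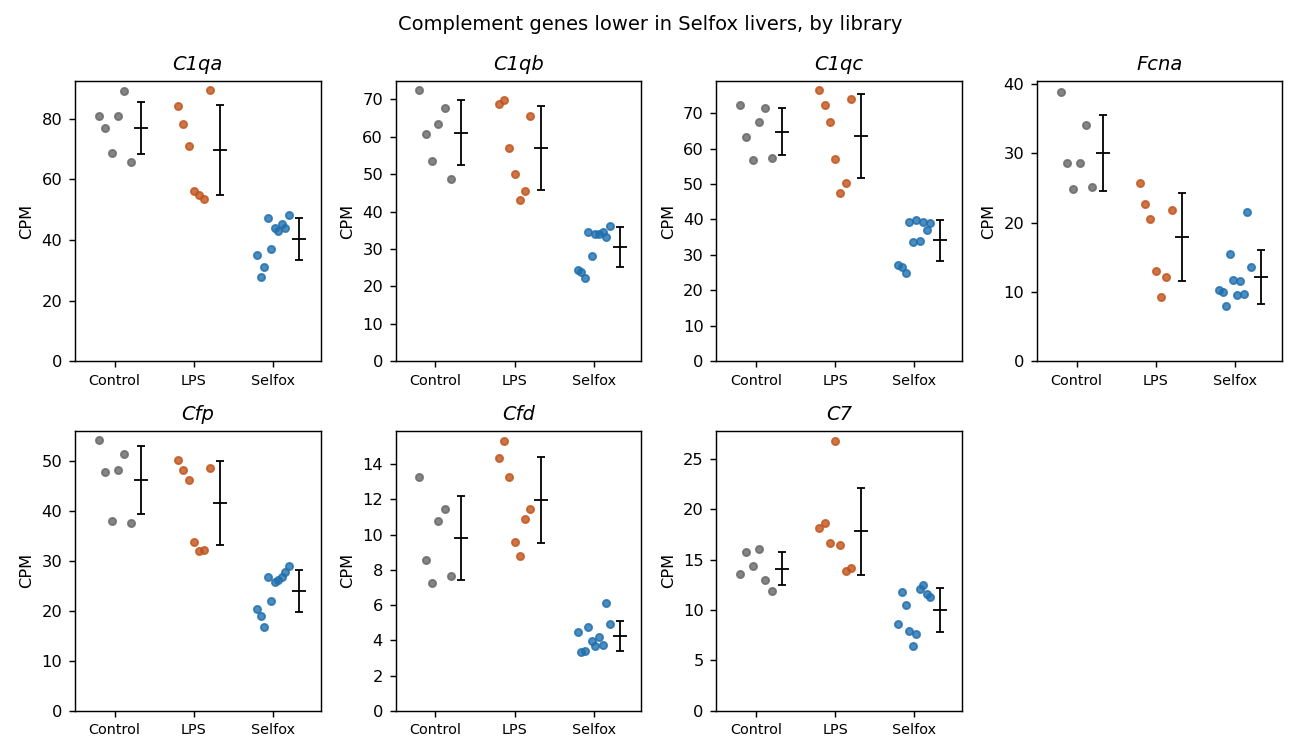
CPM (y axis, from 0) of the complement genes that fell in Selfox, by library, with the mean and SD of each group. For C1qa, C1qb, C1qc, Fcna, Cfp and Cfd all 10 Selfox libraries lie below all 6 controls, and for C7 8 of 10 do.

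Kupffer cell markers moved with these genes. Of 10 markers tested, 9 fell in Selfox with Control (median -1.24 on the log2 scale), beside 14.9% of all genes. Without the late-clock libraries 9 fell as well. In LPS with Control 1 rose (Adgre1), beside 7.71% of all genes. The other 9 did not pass, 1 of them lower at an unadjusted p below 0.05 (edgeR, and DESeq2 gave the same counts). The median there was -0.06. The summed level of the 11 markers with a row ran from 621.5 to 850.5 CPM in Control, 566.7 to 844.8 in LPS and 230.0 to 360.8 in Selfox. The defining marker Clec4f, a Kupffer cell lectin, spanned 194.4 to 253.9, 121.4 to 233.8 and 50.6 to 97.1 CPM. Clec4f was the marker lower in LPS at an unadjusted p below 0.05 (-0.39 ± 0.15, adjusted p = 0.0861). It was below every control in 5 of 7 LPS libraries. In whole liver, fewer cells of a type and less RNA per cell cannot be told apart, and the part of the markers in the fall was not tested.

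Set against that summed marker level, the genes parted. C1qa came to 9.54 to 10.6% of it in Control (median 9.83%), 8.19 to 10.7% in LPS (median 9.69%) and 10.7 to 15.3% in Selfox (median 13.0%). Cfp came to a median of 6.02%, 5.77% and 7.71%, C1qb to 7.73%, 7.59% and 9.97%, and C1qc to 8.23%, 8.55% and 10.8%. By these medians C1qa, C1qb, C1qc and Cfp fell less in Selfox than the summed markers. The ranges of C1qb, C1qc and Cfp overlapped between Control and Selfox. C7 came to a median of 1.91%, 2.30% and 3.44%, and its 2.06 to 4.52% in Selfox lay wholly above the 1.53 to 1.99% of Control. Cfd in Selfox stayed near its Control share, at 1.26% in Control, 1.68% in LPS and 1.28% in Selfox (medians). Fcna was at 3.80% in Control and 3.78% in Selfox, but at 2.59% in LPS, where 1.64 to 3.26% lay wholly below the 3.42 to 4.80% of Control. These shares are descriptions, with no test.

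**Figure D3:**
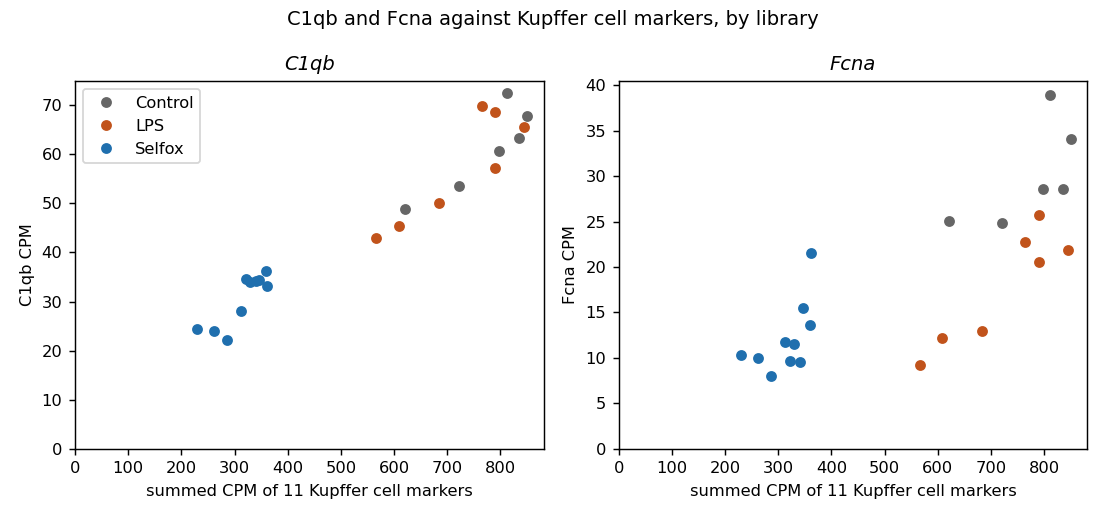
CPM of C1qb and of Fcna (y axes) against the summed CPM of the Kupffer cell markers (x axis), 1 point per library. Selfox libraries form a group at 230.0 to 360.8 CPM of markers, apart from Control and LPS, and LPS libraries lie low for Fcna at marker levels that overlap those of Control.

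Promoter sequences of these genes are shown because the genes fell together in Selfox. RefSeq (GRCr8) gave a promoter, 250 bases before to 50 after the start, for 24 of the 37 genes, C1qc not among them. The purine box GAGGAA of PU.1, a transcription factor of myeloid cells, is in capitals where either strand holds it.
C1qa, chr5:154419884-154420183, minus strand: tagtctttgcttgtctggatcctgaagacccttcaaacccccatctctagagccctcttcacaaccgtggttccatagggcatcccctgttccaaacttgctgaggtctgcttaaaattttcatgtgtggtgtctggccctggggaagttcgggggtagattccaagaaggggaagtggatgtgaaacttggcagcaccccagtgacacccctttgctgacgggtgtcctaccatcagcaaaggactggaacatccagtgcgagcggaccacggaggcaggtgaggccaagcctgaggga
C1qb, chr5:154407778-154408077, minus strand: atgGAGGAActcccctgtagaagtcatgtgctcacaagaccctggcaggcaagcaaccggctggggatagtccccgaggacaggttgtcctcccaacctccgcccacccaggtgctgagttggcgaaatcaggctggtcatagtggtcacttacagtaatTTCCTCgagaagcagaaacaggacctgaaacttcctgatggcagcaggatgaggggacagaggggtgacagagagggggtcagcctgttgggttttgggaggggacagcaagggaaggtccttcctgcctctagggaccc
Fcna, chr3:28847188-28847487, minus strand: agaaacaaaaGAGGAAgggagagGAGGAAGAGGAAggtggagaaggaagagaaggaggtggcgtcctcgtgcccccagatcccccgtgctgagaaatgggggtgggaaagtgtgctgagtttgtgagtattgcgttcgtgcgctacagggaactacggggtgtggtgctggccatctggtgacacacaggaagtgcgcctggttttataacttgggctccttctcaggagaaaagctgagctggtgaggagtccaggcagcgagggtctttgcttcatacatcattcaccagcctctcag
Cfp, chrX:3715301-3715600, plus strand: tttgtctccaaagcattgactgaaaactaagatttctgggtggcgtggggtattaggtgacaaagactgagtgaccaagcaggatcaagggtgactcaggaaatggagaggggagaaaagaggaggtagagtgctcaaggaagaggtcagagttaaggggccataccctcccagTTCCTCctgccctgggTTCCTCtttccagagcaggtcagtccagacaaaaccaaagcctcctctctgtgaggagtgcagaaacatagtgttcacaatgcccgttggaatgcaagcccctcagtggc
Searched on both strands, the box occurred in C1qb, Fcna and Cfp and was in neither the C1qa window nor that of Cfd, which is not printed; C7, like C1qc, had no promoter in the table. It occurred in 7 of the 24 complement promoters (29.2%) and in 27.6% of all 33469 promoters in the table, so its share among them is near that of all genes. A match of these letters is a description of the sequence only.

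C3, the central component that every route cleaves, rose in LPS. It lay at 9973 to 13301 CPM in Control (median 11477), 12227 to 16384 in LPS (median 14372) and 10444 to 16116 in Selfox (median 12315). In LPS 5 of 7 libraries exceeded every control, and LPS 7 was the highest. The rise was 1.24-fold in LPS (0.32 ± 0.09, adjusted p = 0.0251), and the change in Selfox, 0.12 ± 0.09, did not pass. It no longer passed without Control 49 or without LPS 7 (adjusted p up to 0.0625), nor without the late-clock libraries (0.22, adjusted p = 0.193). Factor B (Cfb), the protease of the alternative C3 convertase, did not pass in any comparison, at medians of 1809, 1948 and 1798 CPM in Control, LPS and Selfox.

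Among the 7 terminal genes, C9, the subunit that polymerises into the pore, was raised in both models. C9 lay at 1267 to 1545 CPM in Control (median 1377), 1465 to 2491 in LPS (median 1909) and 1466 to 2583 in Selfox (median 1747). Above every control were 5 of 7 LPS and 9 of 10 Selfox libraries, with LPS 7 and Selfox 4 the highest. The rise was 0.41 ± 0.13 in LPS (1.33-fold, adjusted p = 0.0365) and 0.40 ± 0.12 in Selfox (1.32-fold, adjusted p = 0.0167). Leaving out 1 library ended the call in LPS in 8 of 13 fits (adjusted p up to 0.0874), as did leaving out the late-clock libraries (0.31, adjusted p = 0.164). In Selfox it held in every such fit.

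C8 is built from an alpha, a beta and a gamma chain, encoded by C8a, C8b and C8g. C8a lay at 1070 to 1227 CPM in Control (median 1126), 1167 to 1464 in LPS (median 1338) and 1168 to 1654 in Selfox (median 1320). C8b lay at 531.4 to 632.8, 546.2 to 608.9 and 481.9 to 596.1 CPM. C8a was above every control in 9 of 10 Selfox libraries, while C8b overlapped in all groups. C8a rose 1.20-fold in Selfox (0.27 ± 0.07, adjusted p = 0.00728), and its LPS value of 0.22 ± 0.08 missed the threshold (adjusted p = 0.0529). C8b was at -0.10 ± 0.05 in Selfox and -0.01 ± 0.06 in LPS, and C8g was at 0.07 ± 0.06 in Selfox and 0.06 ± 0.07 in LPS.

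C8a and C8b are direct neighbours in GRCr8, and their ratio is given as a description, because the pair was chosen after its values were seen. The log2 ratio of C8a to C8b was 0.98 ± 0.14 in Control (SD, n = 6), 1.20 ± 0.10 in LPS (n = 7) and 1.33 ± 0.09 in Selfox (n = 10). As a ratio of counts it ran from 1.69 to 2.18 in Control, 2.10 to 2.59 in LPS and 2.38 to 2.92 in Selfox, so that Control and Selfox did not overlap and LPS overlapped both.

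C7, which anchors the growing complex in the membrane, fell in Selfox. It lay at 11.9 to 16.0 CPM in Control (median 14.0), 13.9 to 26.8 in LPS (median 16.6) and 6.42 to 12.5 in Selfox (median 10.9). In Selfox 8 of 10 libraries were below every control and 10 of 10 below every LPS library. The fall was 0.49 ± 0.14 against Control (adjusted p = 0.0130) and 0.83 ± 0.14 against LPS (adjusted p = 0.000296). Of 10 stellate cell markers, 3 rose and 1 fell in Selfox with Control (median 0.17), beside 14.2% and 14.9% of all genes. In Selfox with LPS 1 of these markers rose and 2 fell (median -0.27), beside 6.86% and 7.64%. Their sum ran from 138.4 to 196.8 CPM in Control, 163.9 to 241.7 in LPS and 141.4 to 232.3 in Selfox, and their part in the C7 level was not tested. In LPS C7 was at 0.34 ± 0.16 and did not pass (adjusted p = 0.151). C5, the source of the anaphylatoxin C5a, and C6 did not pass. C5 had medians of 1077, 1242 and 1021 CPM, and C6 spread from 145.6 to 568.2 CPM, with its highest library in LPS.

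The soluble regulators hold the cascade in check. C4bpa, the alpha chain of C4b-binding protein, which helps inactivate C4b, had the largest rise in LPS among the genes that passed. It lay at 814.9 to 947.8 CPM in Control (median 894.2), 1027 to 1782 in LPS (median 1287) and 828.7 to 1862 in Selfox (median 1063). All 7 LPS libraries and 9 of 10 Selfox libraries were above every control. It rose 1.52-fold in LPS (0.60 ± 0.15, adjusted p = 0.00981) and 1.30-fold in Selfox (0.38 ± 0.14, adjusted p = 0.0482). The rise in LPS passed in every fit with a library left out and without the late-clock libraries (0.54, adjusted p = 0.0458). That in Selfox was lost in 12 of 16 such fits (adjusted p up to 0.0834) and with the 2 groups fitted alone (adjusted p = 0.0502).

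The beta chain, C4bpb, did not pass in any comparison, at 0.12 ± 0.11 in LPS and -0.06 ± 0.10 in Selfox. Its gene lies beside C4bpa in GRCr8 with 1 gene between. The log2 ratio of C4bpa to C4bpb was 0.82 ± 0.19 in Control, 1.28 ± 0.22 in LPS and 1.23 ± 0.14 in Selfox (SD, n = 6, 7 and 10). This pair too was chosen after its values were seen, so its ratio carries no test.

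Factor I (Cfi), the protease that inactivates C3b and C4b, rose in LPS. It lay at 1008 to 1359 CPM in Control (median 1186), 1369 to 1734 in LPS (median 1399) and 1078 to 1383 in Selfox (median 1207). All 7 LPS libraries exceeded every control, the lowest by a small margin, while Selfox overlapped Control. The rise was 1.24-fold (0.31 ± 0.08, adjusted p = 0.0101), and the Selfox value was 0.04 ± 0.07. Selfox was lower than LPS by 0.27 ± 0.07 (adjusted p = 0.0105), below every LPS library in 9 of 10. Without the late-clock libraries the rise in LPS missed the threshold (0.23, adjusted p = 0.0849), and so did the difference of Selfox from LPS (adjusted p = 0.144).

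Serping1, the C1 inhibitor, passed only in the comparison of the models. It lay at 715.4 to 894.9 CPM in Control (median 798.1), 762.0 to 1439 in LPS (median 856.4) and 662.7 to 995.9 in Selfox (median 753.2). LPS 7 was the highest, and all groups overlapped. The difference of Selfox from LPS was -0.33 ± 0.11 (adjusted p = 0.0488), and it no longer passed in 12 of 17 fits with a library left out and in 10 of 12 other alternatives (adjusted p up to 0.528). Clusterin (Clu) and vitronectin (Vtn), which bind the forming attack complex and keep it from inserting, did not pass with all libraries by edgeR. Clu passed as lower in Selfox with Control without the late-clock libraries and without Control 55. Clu had medians of 806.9, 799.2 and 718.4 CPM, and Vtn of 3769, 3534 and 3408 CPM, in Control, LPS and Selfox.

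**Figure D4:**
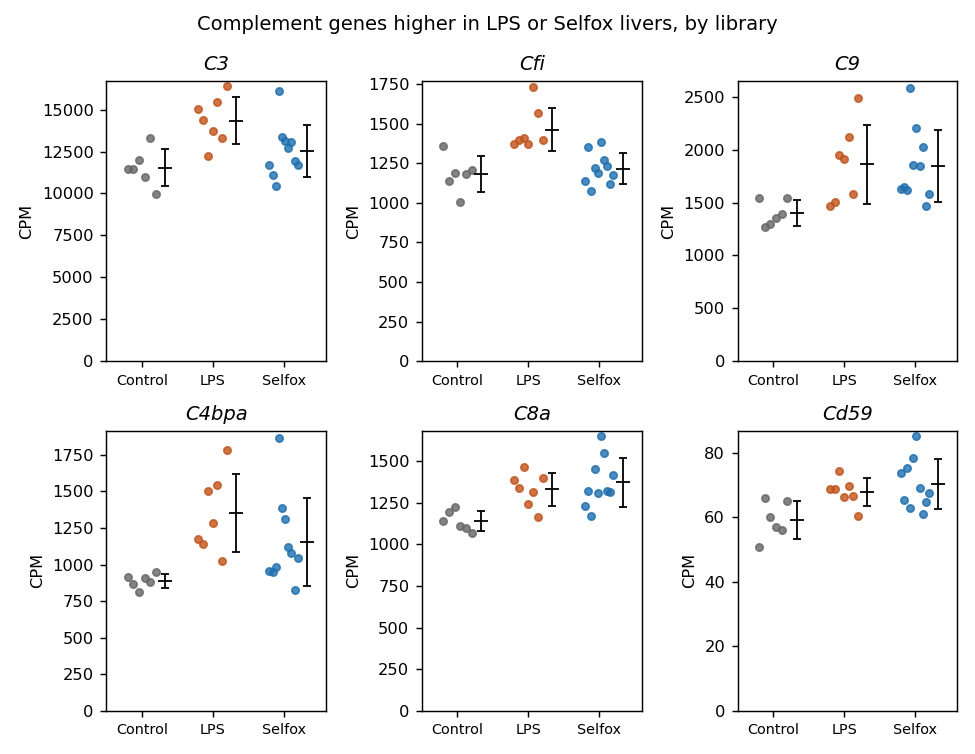
CPM (y axis, from 0) of C3, Cfi, C9, C4bpa, C8a and Cd59 by library, with the mean and SD of each group. All 7 LPS libraries lie above all controls for Cfi and C4bpa, and 9 of 10 Selfox libraries do for C9, C4bpa and C8a.

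Membrane regulators protect the cells that carry them. Cd59, which blocks the assembly of C9 on a cell's own membrane, lay at 50.8 to 65.8 CPM in Control (median 58.5), 60.2 to 74.2 in LPS (median 68.6) and 61.1 to 85.0 in Selfox (median 68.3). Above every control were 6 of 7 LPS and 6 of 10 Selfox libraries. It rose by 0.25 ± 0.07 in Selfox (1.19-fold, adjusted p = 0.0118), and the LPS value of 0.20 ± 0.08 did not pass (adjusted p = 0.0893).

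Cd46, a cofactor for factor I that rodents express mainly in testis, moved in opposite directions in the models at a very low level. It lay at 0.727 to 1.91 CPM in Control (median 1.63), 0.583 to 1.24 in LPS (median 0.868) and 1.74 to 3.95 in Selfox (median 2.29). These levels rest on 26 to 90 counts per library in Control, 45 to 99 in LPS and 116 to 279 in Selfox. Every Selfox library was above every LPS library, while 3 of 7 LPS libraries were below every control and 9 of 10 Selfox libraries above. Cd46 fell by 0.79 ± 0.22 in LPS (1.73-fold, adjusted p = 0.0199) and rose by 0.78 ± 0.21 in Selfox (1.72-fold, adjusted p = 0.00669). The direct difference was 1.57 ± 0.20 (2.97-fold, adjusted p = 1.54e-05). The fall in LPS did not pass without Control 46 (adjusted p = 0.0554) or with counts thinned to equal depth (adjusted p = 0.0682), and the other Cd46 calls passed in every fit run. Cd55, the decay-accelerating factor, was at 0.251 to 0.872 CPM and passed in no comparison; its 95% intervals reached from -0.60 to 0.49 in LPS and -0.39 to 0.64 in Selfox.

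The anaphylatoxin receptors C3ar1 and C5ar1, which bind C3a and C5a on myeloid and other cells, were also low. C3ar1 lay at 0.916 to 1.74 CPM in Control (median 1.28), 0.910 to 1.35 in LPS (median 1.06) and 0.757 to 2.51 in Selfox (median 1.90). Selfox held both the lowest and the highest values, and the groups overlapped. C3ar1 was higher in Selfox than in LPS by 0.72 ± 0.19 (adjusted p = 0.0137; 8 of 10 libraries above every LPS library), but not than in Control (0.47 ± 0.21, adjusted p = 0.0927). The difference from LPS did not pass in 3 of 12 alternatives, the one without the late-clock libraries among them (adjusted p up to 0.157). C5ar1 had medians of 2.69, 2.78 and 2.53 CPM and passed in no comparison. By edgeR 6.86% of all genes rose in Selfox with LPS and 14.2% in Selfox with Control. Of all 15079 genes, DESeq2 called 1352 and 2440 higher in these 2 comparisons, and limma voom 1157 and 2460. Without the late-clock libraries edgeR called 694 and 2464 of 15239 genes higher. Beside C3ar1, 6 of 9 neutrophil markers rose in Selfox with LPS by edgeR, 8 by DESeq2 and 1 by limma voom. In Selfox with Control 5, 5 and 0 did. Without the late-clock libraries 0 passed in either comparison with edgeR, and 1 and 5 had an unadjusted p below 0.05. Their sum ran from 4.95 to 14.5 CPM in Control, 4.51 to 13.8 in LPS and 6.22 to 129.8 in Selfox. The part of these cells in the C3ar1 level was not tested.

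**Figure D5:**
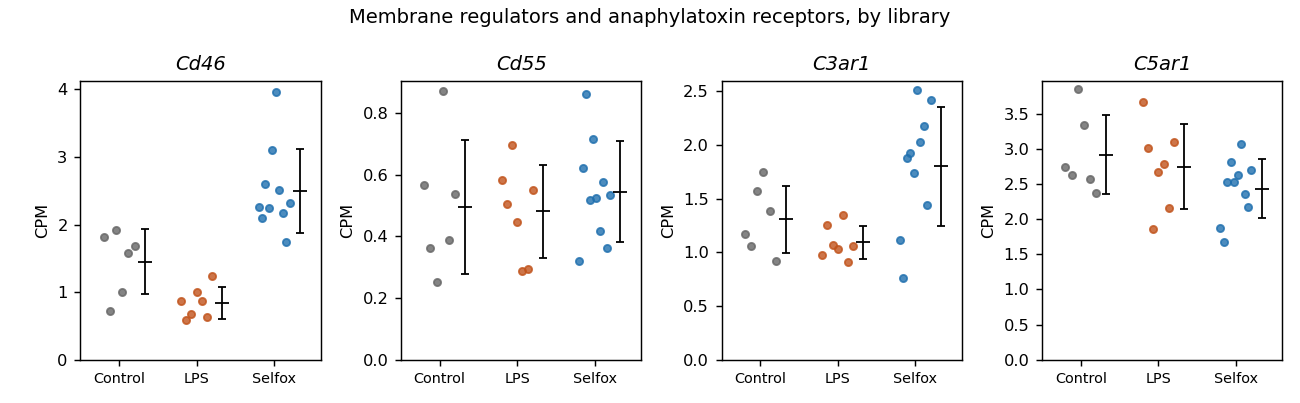
CPM (y axis, from 0) of Cd46, Cd55, C3ar1 and C5ar1 by library, with the mean and SD of each group. For Cd46 the 10 Selfox libraries lie above all 7 LPS libraries, and for Cd55 and C5ar1 the groups overlap.

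Of 21 further complement genes, 19 were tested, and 2 rose and 5 fell in Selfox with Control, where 14.2% of all genes rose and 14.9% fell. In LPS 0 passed with edgeR (1 at an unadjusted p below 0.05) and 0 with DESeq2. There 1 fell with limma voom, and 1 fell with edgeR without the late-clock libraries. Vsig4, the receptor by which Kupffer cells clear C3b-coated particles, fell by 2.03 ± 0.12 (adjusted p = 1.39e-10), from 48.0 to 56.4 CPM in Control to 9.05 to 16.8 in Selfox. At a median of 6.56% of the summed Kupffer markers in Control and 4.05% in Selfox, it fell more than their sum, though less than Marco among them (-2.94 ± 0.14). Csmd1, a membrane complement inhibitor, rose by 2.20 ± 0.35 (adjusted p = 0.000131), and Cr1l, the rodent regulator Crry, by 0.25 ± 0.06 (adjusted p = 0.00440). Colec11, the partner of Colec10 in a lectin complex, fell by 0.34 ± 0.08 (adjusted p = 0.00376). In Selfox with LPS 2 rose and 4 fell, beside 6.86% and 7.64% of all genes, and 5 fell without the late-clock libraries. Vsig4 was at -2.02 ± 0.12, Csmd1 at 2.499 ± 0.334 and Cr1l at 0.37 ± 0.06. Itgb2, the beta chain of the C3b-fragment receptors of leukocytes, was at -0.67 ± 0.14.

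Of 15 transcription factors that act on complement genes in liver, 13 did not pass in LPS, 10 did not in Selfox with Control, and 12 did not in Selfox with LPS. In LPS 1 rose and 1 fell, beside 7.71% and 6.99% of all genes. In Selfox with Control 4 rose and 1 fell, beside 14.2% and 14.9%. In Selfox with LPS 2 rose and 1 fell, beside 6.86% and 7.64%. Without the late-clock libraries 3 rose and 1 fell in Selfox with Control, and 1 rose and 0 fell in Selfox with LPS. In LPS the bile acid receptor Nr1h4 rose by 0.40 ± 0.12 (adjusted p = 0.0276), and in Selfox with Control by 0.31 ± 0.11 (adjusted p = 0.0411). In Selfox with Control the hepatocyte factor Hnf4a fell by 0.53 ± 0.09 (adjusted p = 0.000198). Irf1, an interferon regulatory factor, rose by 3.26 ± 0.79 (adjusted p = 0.00402) and Cebpd, a C/EBP factor of the acute phase, by 1.53 ± 0.50 (adjusted p = 0.0250). Irf1 exceeded every control in 6 of 10 Selfox libraries, and Cebpd in 5 of 10.

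Acute phase genes, which hepatocytes induce in inflammation, were counted beside C3, C9 and C4bpa. Of 11 tested, 5 rose in LPS and 2 in Selfox with Control, beside 7.71% and 14.2% of all genes. In Selfox with LPS 6.86% of all genes rose and 7.64% fell. There 0 of the 11 passed by edgeR (2 at an unadjusted p below 0.05), DESeq2 or limma voom. Without the late-clock libraries 1 rose in LPS and 2 in Selfox. In LPS ceruloplasmin (Cp) rose by 0.64 ± 0.15 (adjusted p = 0.00676), above every control in 7 of 7 libraries. Haptoglobin (Hp) rose by 0.57 ± 0.15 (adjusted p = 0.0151), the iron-binding lipocalin Lcn2 by 4.58 ± 1.30 (adjusted p = 0.0222), with 5 of 7 libraries above and 1 below every control, and Itih4 by 0.43 ± 0.13 (adjusted p = 0.0292). In Selfox Orm1 rose by 1.15 ± 0.32 (adjusted p = 0.00985) and Cp by 0.45 ± 0.14 (adjusted p = 0.0188). Orm1 passed in LPS as well (0.998 ± 0.336, adjusted p = 0.0482), with 5 of 7 libraries above every control.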

How the data were processed

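Rat liver RNA was sequenced as 23 libraries (6 Control, 7 LPS, 10 Selfox, grouped by the labels) made with a stranded mRNA kit. The deposited table holds counts of reads per gene in whole numbers. Per the submitters' processing notes, the authors used FastQC, Trim Galore, STAR 2.7.9a and featureCounts of Subread 2.0.3. Which genome build, annotation and strand setting they used is not given in the sources used here, and genes that overlap or lie antisense to others are therefore uncertain. Even numbers made up 66.1% to 74.9% of counts from 1 to 9 in a library, so low counts may hold both mates of a pair; counts divided by 2 were tried.

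Genes were filtered by filterByExpr (minimum count 10), scaled by TMM and fitted with edgeR 4.0.16 in R 4.3.3, all 3 groups in a single robust quasi-likelihood fit (biological coefficient of variation 0.235). P-values were adjusted by Benjamini-Hochberg over all 15079 genes tested, with a threshold of 0.05. The standard error is the size of the log2 fold change over the square root of F, and intervals are 1.96 standard errors wide on each side. CPM uses TMM-scaled library sizes. Depth of 31.9 to 79.2 M (mega) counts per library limits the genes near 1 CPM, for which Cd46 with 26 to 279 reads is an example.

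Alternatives were RLE and upper-quartile factors, 2 other filters, DESeq2 1.42.0, limma 3.58.1 (voom with sample weights), the compared groups alone, thinned counts, each library left out, the late-clock libraries left out and a replicate block. The fit was tested on simulated data with known changes. No library was left out of the comparisons, 0 columns were identical and all columns matched a label. The complement genes, the other gene lists and the tests were chosen with earlier results of these data known. Named are all 37 genes, with full values for those past the threshold, and up to 4 genes of each other list by adjusted p. Results for some genes and motifs are not reported here.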

Additional observations from a re-analysis of the deposited data

Results flagged for a closer look

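In each group the highest and lowest library of each complement gene was compared with the rest on the log2 CPM scale, and 4 of 105 sets of values held a library far from the others; chance gives about 1 in 20. Masp1, a lectin-route protease, was at 6.94 in Control 55, a late-clock library, with the nearest control at 7.11. C6, a terminal component, was at 9.15 in LPS 3, with the nearest LPS library at 8.33. C8g, the gamma chain of C8, was at 7.65 in Selfox 6, with the nearest Selfox library at 7.53. C4bpb, the beta chain of C4b-binding protein, was at 9.31 in Control 40, with the nearest control at 9.0. None of these 4 genes passed in the 3 comparisons reported above with all libraries by edgeR.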

How the results depend on the processing

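No called complement gene reversed its direction: of the values of single genes under an alternative or with a library left out, 677 stayed on their side of the threshold and 63 lost it. Without the late-clock libraries LPS with Control gave 1 higher gene in place of 4 and 1 lower in place of 2, while over all genes it gave 1163 higher and 1046 lower, against 1163 and 1054 with them. Selfox with LPS gave 1 higher in place of 2, and over all genes 694 higher and 740 lower, against 1035 and 1152. The cause was not tested. No filter gave 1 lower gene in LPS with Control, as did counts thinned to equal depth. With each library left out in turn, LPS with Control gave 2 to 5 higher and 1 to 2 lower, Selfox with Control 4 to 6 higher and 7 to 8 lower, and Selfox with LPS 2 to 2 higher and 7 to 10 lower. The other alternatives gave 4 to 6 higher in LPS with Control, 4 to 5 higher and 7 to 9 lower in Selfox with Control, and 6 to 9 lower in Selfox with LPS. C8a in LPS passed with DESeq2 and limma voom, and Fcna in Selfox with LPS passed with both. Cd59 in LPS passed with limma voom. Masp1 and Clu passed as lower in Selfox with Control in 2 settings each. C3ar1 in Selfox with Control, and C1s, Masp1 and C3 in Selfox with LPS, passed in 1 fit each with a library left out. LPS and Selfox share replicate numbers 1 to 7, but 1 of 7 same-numbered pairs correlated above 0.1 and 1 of 7 LPS libraries correlated best with its own number. The replicate block in those libraries gave 1 higher and 6 lower genes in Selfox with LPS, against 1 and 7 in the same libraries without it. Over all genes the block gave 558 higher and 701 lower, and the same libraries without it 767 and 850. The depth of Cd46, Cd55 and C3ar1 limits what can be said of them.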

Other observations

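Some single libraries stood high for many complement genes at once. Within LPS, library 7 was the highest of 7 for 14 of 35 genes, among them C1r, C1s, C2, C4b, C3, C5, C9, C4bpa, C4bpb and Serping1. Within Selfox, library 4 was the highest of 10 for 11 of 35 genes, among them C3, C5, C9, C4bpa, C4bpb, Serping1 and Vtn. Library 10 of Selfox, by contrast, was highest for 5, among them C1qa, C1qb and Cfp. LPS 7 is a late-clock library and Selfox 4 is not. These counts are a description with no test, and the genes of a library share its depth and scaling. The same count over all genes tested was not made, so whether it is particular to complement genes is not known.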
